A study of Mus musculus with 12 samples.

Results

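Sphingolipids are built on ceramide, which is made de novo or recycled from sphingosine and is then turned into sphingomyelin, into glucosylceramide and gangliosides, or back into sphingosine. Gangliosides are glycosphingolipids that carry sialic acid, and sialidases remove it. Sphingosine kinases make sphingosine 1-phosphate (S1P), a lipid signal that a phosphatase returns to sphingosine and a lyase breaks down for good. The liver makes much of the body's sphingolipid, and its ceramides carry mainly very long acyl chains.

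Messenger RNA of 10 genes of these routes was followed in mouse primary hepatocytes, out of 55487 genes in the count files. The genes were listed by symbol, and all 10 matched an Ensembl identifier. They are Neu3, St3gal5 and Ugcg of ganglioside metabolism, Sphk1, Sphk2, Sgpl1 and Sgpp1 of S1P metabolism, and Cers2, Cers6 and Degs1 of ceramide synthesis. All 10 were among the 13535 genes with enough counts to be tested. The list was chosen by hand with the measured differences between FAC and control in view, in which Neu3 had the largest fall and Sphk1 one of the larger rises. For these 10 genes the difference between FAC and control is therefore a description and is given without a p-value. Their other tests against FAC or control reuse libraries of that comparison and are not independent of the choice of genes.

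The cells came from liver and were cultured, and 4 groups of 3 libraries were sequenced. Control cells received neither pretreatment nor FAC. The FAC group received FAC, an agent that the labels name only by this abbreviation. Other cells were pretreated on day 2 of culture with liproxstatin-1, a scavenger of lipid reactive oxygen species, before FAC (Lip-1+FAC), or with Mito-TEMPO, a scavenger of mitochondrial reactive oxygen species, before FAC (MT+FAC). No group received a scavenger without FAC, so the scavengers' own effects cannot be told apart from their effects on the FAC response. The labels give no strain, sex, age or dose and do not say whether the replicates are separate animals or cultures. P-values thus measure the spread between these libraries, which may be technical.

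Between 22991598 and 31683376 counts were assigned to genes in 11 libraries, and 52529278 in FAC replicate 2, whose file is marked as combined. Levels are given as CPM, read counts scaled to a common depth with TMM factors. The labelled cell type was checked against 6 hepatocyte markers, whose summed level was 14931.8 to 15518.6 CPM in control and 15691.1 to 16082.6 CPM in FAC cells, and 11779.0 to 12638.5 CPM with Lip-1 and 12076.7 to 13226.9 CPM with MT before FAC. The macrophage list of 6 markers summed to 219.8 to 251.5 CPM in control and 285.0 to 318.3 CPM in FAC cells, with 112.6 to 142.9 CPM after Lip-1 and 139.8 to 170.5 CPM after MT, and nearly all of it was Cd68. Adgre1, Clec4f, Cd5l and Vsig4 of that list were each at most 1.81 CPM in every library. Csf1r was 1.97 to 3.29 CPM in control, 2.85 to 4.27 in FAC, 2.62 to 2.93 after Lip-1 and 2.22 to 3.19 after MT. The cholangiocyte list of 6 markers summed to 58.6 to 69 CPM in control and 98.4 to 123.3 in FAC, with 109.6 to 124.9 after Lip-1 and 104.0 to 144.7 after MT. Its members moved in opposite directions: Sox9 was 15.3 to 19.7 CPM in control, 49.2 to 57.5 with FAC and at most 16.6 in the pretreated groups, whereas Spp1 was 34.8 to 48.1, 40.4 to 49 and, in the pretreated groups, 86.9 to 124.6 CPM. Krt19, Krt7 and Epcam had their highest ranges in FAC, and Cftr was at most 0.0715 CPM in every library and at 0 in the FAC libraries. The stellate list of 6 markers summed to 9.27 to 14.3 CPM in control, 18.9 to 19.6 in FAC and at most 9.81 in the pretreated groups. The high FAC sum was Reln (5.84 to 8.93 CPM in control, 15.9 to 16.2 in FAC), while Dcn (2.8 to 4.7 and 2.22 to 2.58) and Lrat (0.118 to 0.45 and 0 to 0.0575) were lower in FAC. The endothelial list of 6 summed to 34.5 to 36, 33.6 to 34.3 and at most 29.7 CPM, and the lower pretreated sum was Stab2 (25.7 to 27.2 CPM in FAC, 15.7 to 22.2 in the pretreated groups), whereas with Lip-1 Cdh5 lay below and Pecam1 and Kdr did not lie below their FAC ranges. Lymphocyte markers summed to at most 0.432 CPM, and Cd3e, Nkg7, Ms4a1 and Cd2 were at 0 throughout. These lists moved with the groups, and their part in the results below was not tested. In bulk RNA, fewer cells of a type and less RNA per cell cannot be told apart.

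The 250 bases before a start site of Neu3 and of Sphk1 are shown because these genes had the extreme responses, in opposite directions. Both come from RefSeq with the build GRCm38.p6 and are written 5′ to 3′ on the strand of the gene. The Neu3 window lies at chr7:99828418-99828667 on the minus strand. The Sphk1 window lies at chr11:116531587-116531836 on the plus strand, before 1 of the 5 Sphk1 start sites in RefSeq. The window before the start at 116531911 holds the same match. That before 116531100 holds none of the 4 motifs, and those before 116532444 and 116532451 hold only an E-box. Which start was in use was not tested. Capitals mark matches to 1 of 4 motifs searched on both strands.
Neu3: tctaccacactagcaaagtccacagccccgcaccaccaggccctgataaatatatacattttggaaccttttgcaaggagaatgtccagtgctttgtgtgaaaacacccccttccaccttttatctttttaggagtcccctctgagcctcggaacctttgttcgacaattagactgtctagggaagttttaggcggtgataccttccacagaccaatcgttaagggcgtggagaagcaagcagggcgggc
Sphk1: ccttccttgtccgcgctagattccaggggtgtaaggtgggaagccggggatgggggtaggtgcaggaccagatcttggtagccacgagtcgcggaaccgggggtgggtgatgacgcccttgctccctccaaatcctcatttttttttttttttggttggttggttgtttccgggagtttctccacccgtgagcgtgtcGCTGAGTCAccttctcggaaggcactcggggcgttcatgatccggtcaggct
The capitals in Sphk1 hold an antioxidant response element core (TGACNNNGC, here on the opposite strand), 52 bases before the start, that overlaps an AP-1 site (TGANTCA). Among 32851 promoter windows of 250 bases, 10.2% held the first motif and 6.75% the second. These shares are per window, whereas 5 windows of Sphk1 were searched. The cAMP response element TGACGTCA was in 1.55% of all windows and in none of the 10 genes'. The E-box CACGTG was in 6.02% of all windows and was found in those of Cers2, Cers6, Degs1 and other Sphk1 starts. Ugcg held an antioxidant response element core. The windows of Neu3, Sphk2, Sgpl1, Sgpp1 and St3gal5 held none of the 4 motifs. A match describes letters in a window and not a site in use.

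Before the comparisons, levels per kilobase of exon place the genes relative to each other. In control cells Cers2 was highest, at 157.8 ± 5.72 CPM per kb (SD, n = 3). It was followed by St3gal5 at 89.6 ± 9.43, Degs1 at 76.1 ± 1.96, Sgpl1 at 34.6 ± 2.34 and Sgpp1 at 16.7 ± 2.13. Ugcg at 8.63 ± 1.08 and Sphk2 at 7.81 ± 0.602 overlapped, as did Cers6 at 5.93 ± 0.298 and Neu3 at 5.48 ± 0.616. Sphk1 was lowest, at 0.438 ± 0.129 CPM per kb. In FAC, Neu3 took the lowest place with 0.637 ± 0.0901 CPM per kb, below Sphk1 with 2.29 ± 0.0817.

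Between FAC and control, 4 of the 10 genes were lower and 4 higher at an edgeR adjusted p under 0.05. Of all genes tested 36.6% were called, 17.5% higher and 19.1% lower, and 46.2% had no overlap between the groups. Nothing is read from that count, because the genes were listed with this comparison known. The lower genes were Neu3, St3gal5, Sgpp1 and Degs1, and the higher ones Sphk1, Ugcg, Cers6 and Sgpl1. Sphk2 and Cers2 were not called.

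**Figure D1:**
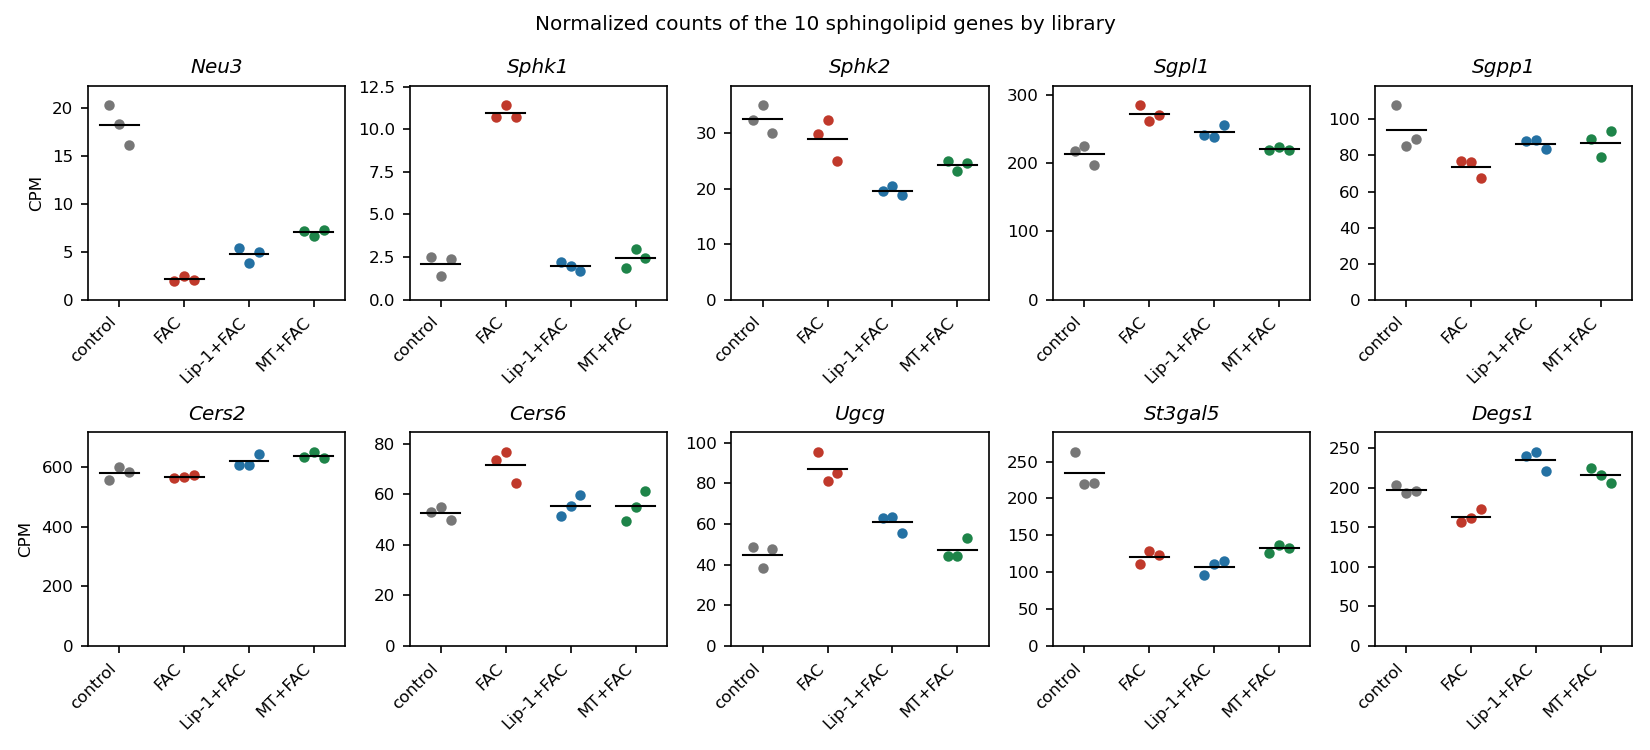
Each panel shows 1 gene, with CPM from 0 on the y axis and the 4 groups on the x axis; points are the 3 libraries of a group and lines are group means. Neu3 is lowest in FAC and partly higher in the pretreated groups, Sphk1 is highest in the FAC libraries, and St3gal5 is low in all 9 libraries that received FAC.

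Neu3 encodes a plasma membrane sialidase that acts on gangliosides (ENSMUSG00000035239, GRCm38 chromosome 7, 99811439 to 99828417, minus strand). Its level was 20.3, 18.4 and 16.2 CPM in the control libraries and 1.9, 2.47 and 2.02 CPM in the FAC libraries. It was 5.39, 3.86 and 4.99 CPM with Lip-1 before FAC and 7.19, 6.65 and 7.3 CPM with MT before FAC. The 4 groups did not overlap, and control was highest and FAC lowest. The FAC values rest on 52, 129 and 50 counts. FAC was 8.44-fold lower than control, a log2 fold change of -3.08 (SE 0.159). Relative to FAC alone, Neu3 rose by 1.13 (SE 0.166, edgeR adjusted p = 3.4e-05) with Lip-1 and by 1.70 (SE 0.161, adjusted p = 4e-07) with MT on the log2 scale. These tests share the FAC libraries with the comparison in which Neu3 was picked out for its low FAC values. Both pretreated groups remained below control, by -1.95 (SE 0.149, adjusted p = 3.76e-08) and -1.38 (SE 0.143, adjusted p = 4.58e-06), tests that share the control libraries with it. Relative to control, Neu3 was thus 3.86-fold lower in Lip-1+FAC and 2.6-fold lower in MT+FAC.

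St3gal5 encodes the sialyltransferase that adds sialic acid to lactosylceramide to make GM3, from which most other gangliosides are made (ENSMUSG00000056091, chromosome 6, 72097592 to 72154571, plus strand). Control libraries held 263.0, 219.9 and 220.5 CPM and FAC libraries 111.2, 129.1 and 122.9 CPM. Lip-1+FAC libraries held 95.8, 111.8 and 115.2 CPM and MT+FAC libraries 126.1, 137.2 and 133.4 CPM. All 9 libraries that received FAC lay below all 3 control libraries, and FAC overlapped with each pretreated group. The difference of FAC from control was -0.95 (SE 0.0823), a level 1.93-fold lower. Neither pretreatment changed it detectably from FAC alone, with -0.17 (95% interval -0.34 to 0.00, edgeR adjusted p = 0.109) for Lip-1 and 0.13 (-0.05 to 0.30, adjusted p = 0.235) for MT.  Against control, St3gal5 fell by 1.12 (SE 0.0828, adjusted p = 3.65e-08) in Lip-1+FAC and fell by 0.83 (SE 0.0821, adjusted p = 3.66e-06) in MT+FAC on the log2 scale.

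Ugcg encodes glucosylceramide synthase, which commits ceramide to glycosphingolipids (ENSMUSG00000028381, chromosome 4, 59189257 to 59222833, plus strand). It measured 48.5, 38.5 and 47.9 CPM in control and 95.4, 81 and 85.1 CPM in FAC. In Lip-1+FAC it measured 62.9, 63.6 and 55.8 CPM, and in MT+FAC 44.1, 44.4 and 52.9 CPM. The FAC libraries were highest, the Lip-1+FAC libraries lay between FAC and control without overlap, and the MT+FAC libraries overlapped with control. FAC was 1.94-fold above control, a log2 difference of 0.95 (SE 0.0973). Ugcg fell by 0.52 (SE 0.0959, edgeR adjusted p = 0.000358) with Lip-1 and fell by 0.89 (SE 0.0968, adjusted p = 2.01e-06) with MT relative to FAC, whose libraries these comparisons share. Lip-1+FAC stayed above control by 0.43 (SE 0.0977, adjusted p = 0.00265). For MT+FAC the difference from control was 0.06 (95% interval -0.14 to 0.27, adjusted p = 0.69).

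Sphk1 encodes the inducible, mainly cytosolic sphingosine kinase (ENSMUSG00000061878, chromosome 11, 116530925 to 116536674, plus strand). Control libraries held 2.52, 1.39 and 2.37 CPM, from 37 to 60 counts, and FAC libraries 10.7, 11.4 and 10.7 CPM. The level was 2.22, 1.97 and 1.65 CPM with Lip-1 before FAC and 1.84, 2.97 and 2.46 CPM with MT before FAC. All FAC libraries lay above all others, and the other 3 groups overlapped with each other. FAC was 5.25-fold above control, a log2 difference of 2.39 (SE 0.212). Relative to FAC, Sphk1 fell by 2.48 (SE 0.212, edgeR adjusted p = 8.84e-08) with Lip-1 and fell by 2.17 (SE 0.206, adjusted p = 3.85e-07) with MT, again with the FAC libraries in common. The differences from control were -0.09 (95% interval -0.59 to 0.40, adjusted p = 0.803) and 0.22 (-0.26 to 0.70, adjusted p = 0.543). Of the exon bases of Sphk1, 4.02% overlap Gm29292 on the opposite strand, and the counting did not use strand. Krt19, a cholangiocyte marker, had its highest range in the same group, with 6.69 to 14.4 CPM in FAC against 3.5 to 4.46 in control and at most 2.94 in the pretreated groups. Sox9, Krt7 and Epcam of that list were also highest in FAC, but Spp1 was highest in the pretreated groups and Cftr was at 0 in FAC. The part of these markers in this result was not tested.

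Sphk2 encodes the other sphingosine kinase, found in the nucleus and at mitochondria among other places (ENSMUSG00000057342, chromosome 7, 45709467 to 45718002, minus strand). It measured 32.4, 35 and 30 CPM in control and 29.8, 32.4 and 24.9 CPM in FAC, which overlapped, with a log2 difference of -0.16 (SE 0.0961). It measured 19.5, 20.5 and 18.9 CPM with Lip-1 before FAC and 24.9, 23.1 and 24.6 CPM with MT before FAC. Every pretreated library lay below every control library. Sphk2 fell by 0.73 (SE 0.0986, edgeR adjusted p = 2.38e-05) in Lip-1+FAC and fell by 0.43 (SE 0.0972, adjusted p = 0.00506) in MT+FAC against control. Against FAC it fell by 0.57 (SE 0.0981, adjusted p = 0.000163) with Lip-1 and fell by 0.27 (SE 0.0967, adjusted p = 0.0337) with MT. The latter call was lost without FAC replicate 1 (-0.26, adjusted p = 0.0885), FAC replicate 2 (-0.18, 0.19) or any MT+FAC replicate (-0.25 to -0.30, 0.057 to 0.0941), with GC and length offsets (-0.21, 0.0798) and after thinning to the smallest library (-0.24, 0.0753). Of its exon bases 21.9% overlap Dbp and Rpl18 on the opposite strand, and the counting did not use strand.

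The balance between the kinases is given as a description, without a test. The lengths were not corrected for exon bases that overlap opposite-strand genes, 21.9% in Sphk2 and 4.02% in Sphk1. With the stranded columns summed the Sphk1 share in FAC was lower, as given in the closing section. Per kilobase of exon, Sphk1 made up 6.35%, 3.34% and 6.43% of the sphingosine kinase mRNA in the control libraries and 23.7%, 23.4% and 27.3% in the FAC libraries. Its share was 9.04%, 7.72% and 7.06% with Lip-1 before FAC and 6.06%, 10.1% and 8.03% with MT before FAC. Sphk2 was the more abundant kinase mRNA in every library. The FAC libraries stood apart from all others, while the pretreated groups overlapped with each other. The means were 5.37 ± 1.76% in control, 24.8 ± 2.15% in FAC, 7.94 ± 1% with Lip-1 before FAC and 8.05 ± 2.01% with MT before FAC (SD, n = 3).

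**Figure D2:**
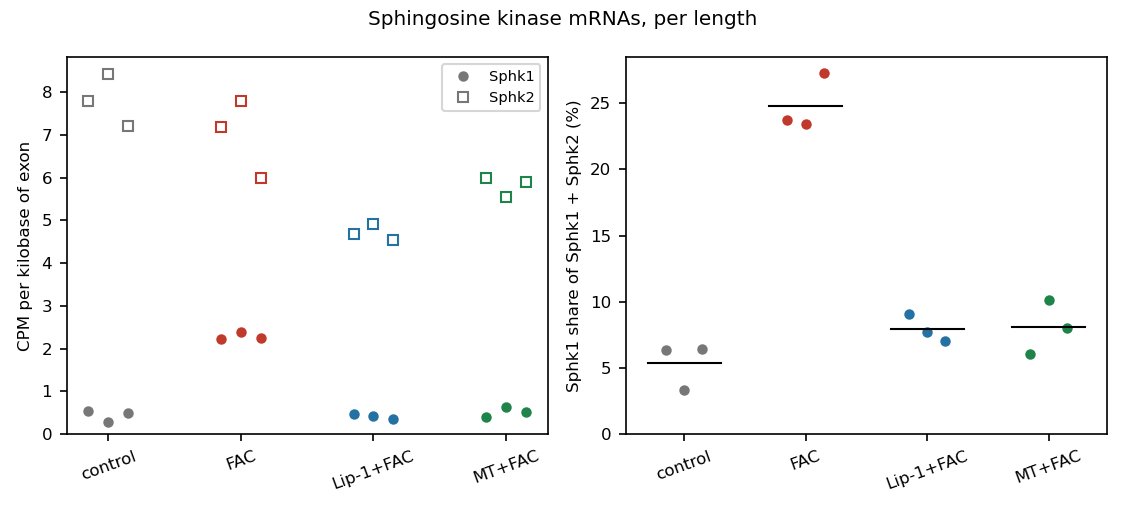
The left panel plots CPM per kilobase of exon of Sphk1 (filled circles) and Sphk2 (open squares) in each library, and the right panel the share of Sphk1 in their sum in percent, with lines at group means. The share is 23.4% to 27.3% in the FAC libraries and at most 10.1% in the others.

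S1P is removed by the lyase Sgpl1 and by phosphatases such as Sgpp1. Sgpl1 (ENSMUSG00000020097, chromosome 10, 61098642 to 61147703, minus strand) measured 217.4, 224.4 and 196.7 CPM in control and 284.4, 261.3 and 270.5 CPM in FAC. It measured 241.6, 238.5 and 255.2 CPM with Lip-1 before FAC and 219.6, 223.1 and 219.5 CPM with MT before FAC. FAC was highest without overlap, and MT+FAC lay within the control range. The difference of FAC from control was 0.35 (SE 0.0576). Sgpl1 fell by 0.30 (SE 0.0575, edgeR adjusted p = 0.000459) with MT against FAC, whose libraries were also used in listing the genes. With Lip-1 the fall was 0.15 (SE 0.0575, adjusted p = 0.0454), and it missed the threshold on leaving out control replicate 1, FAC replicates 1 or 3, Lip-1+FAC replicates 1 or 2, or MT+FAC replicates 2 or 3 (-0.11 to -0.15, adjusted p 0.0524 to 0.209), without a filter on low counts (0.0814) and with the replicate block (0.0621). Lip-1+FAC rose against control by 0.20 (SE 0.0577, adjusted p = 0.0126), a call lost without control replicate 3 (0.15, adjusted p = 0.0715) or Lip-1+FAC replicate 3 (0.18, 0.0527). For MT+FAC against control the difference was 0.05 (95% interval -0.07 to 0.17, adjusted p = 0.565).

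Sgpp1, the phosphatase (ENSMUSG00000021054, chromosome 12, 75714249 to 75735729, minus strand), ranged from 85.2 to 107.8 CPM in control, 67.6 to 77.1 in FAC, 83.4 to 88.5 in Lip-1+FAC and 79.1 to 93.4 in MT+FAC. The FAC libraries were lowest without overlap, and the other groups overlapped. FAC differed from control by -0.35 (SE 0.0855). Sgpp1 rose against FAC, whose libraries were also used in listing the genes, by 0.23 (SE 0.0855, edgeR adjusted p = 0.0382) with Lip-1 and 0.24 (SE 0.0854, adjusted p = 0.0307) with MT. With offsets for GC content and length these became 0.12 (adjusted p = 0.292) and 0.15 (0.196). The first call was also lost on leaving out FAC replicate 3, either of Lip-1+FAC replicates 1 and 2, or MT+FAC replicate 1 (0.18 to 0.23, adjusted p 0.0628 to 0.139) and at a mean CPM of at least 5 (0.0545). The second was lost without FAC replicate 3 or MT+FAC replicate 1 or 3 (0.19 to 0.22, 0.105 to 0.131) and with the stranded columns summed (0.0536).

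Degs1 encodes dihydroceramide desaturase, which completes de novo ceramide synthesis (ENSMUSG00000038633, chromosome 1, 182275772 to 182282804, minus strand). It measured 203.0, 193.7 and 195.0 CPM in control and 156.3, 161.1 and 172.6 CPM in FAC. It measured 239.7, 244.9 and 220.6 CPM with Lip-1 before FAC and 224.5, 215.8 and 205.8 CPM with MT before FAC. The FAC libraries were below and the pretreated libraries above all control libraries. FAC differed from control by -0.27 (SE 0.0585). Against FAC, whose libraries were also used in listing the genes, Degs1 rose by 0.53 (SE 0.0585, edgeR adjusted p = 1.57e-06) with Lip-1 and by 0.40 (SE 0.0584, adjusted p = 3.67e-05) with MT. Against control it rose by 0.25 (SE 0.0584, adjusted p = 0.00303) in Lip-1+FAC. The MT+FAC difference of 0.13 from control did not pass (SE 0.0583, adjusted p = 0.135).

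Ceramide synthases attach the acyl chain, Cers2 mainly very long chains and Cers6 long ones. Cers6 (ENSMUSG00000027035, chromosome 2, 68861441 to 69114282, plus strand) measured 53, 55.1 and 49.8 CPM in control and 73.4, 76.7 and 64.4 CPM in FAC, a log2 difference of 0.44 (SE 0.0871). In Lip-1+FAC it measured 51.5, 55.2 and 59.7 CPM and in MT+FAC 49.3, 54.9 and 61.4 CPM. Only the FAC libraries stood apart, above the rest. Cers6 fell against FAC, whose libraries were also used in listing the genes, by 0.37 (SE 0.0868, edgeR adjusted p = 0.00256) with Lip-1 and fell by 0.38 (SE 0.0867, adjusted p = 0.00218) with MT. Its difference from control was 0.07 in both pretreated groups, with 95% intervals of -0.11 to 0.26 and -0.12 to 0.25.

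Cers2 (ENSMUSG00000015714, chromosome 3, 95314791 to 95323599, plus strand) ranged from 557.7 to 599.4 CPM in control, 564.0 to 572.9 in FAC, 607.2 to 644.5 in Lip-1+FAC and 630.6 to 651.5 in MT+FAC. FAC lay inside the control range, and both pretreated groups lay above it. Cers2 rose against FAC by 0.17 (SE 0.0494, edgeR adjusted p = 0.0103) with MT, which missed the threshold without MT+FAC replicate 2 (0.14, adjusted p = 0.0535) and with offsets for GC content and length (0.11, 0.0702). With Lip-1 the rise was 0.13 (SE 0.0494, adjusted p = 0.0486), and it missed the threshold whenever a library other than control replicate 1 or 2 was left out (0.10 to 0.15, adjusted p 0.0516 to 0.16) and under 7 of the 10 other alternatives (0.11 to 0.13, adjusted p 0.0567 to 0.124). Against control, the differences of 0.10 (adjusted p = 0.156) with Lip-1 before FAC and 0.14 (0.0552) with MT before FAC did not pass, but with the offsets both passed, at 0.19 (0.00639) and 0.16 (0.0236). Per length, Cers2 made up 95.7 ± 0.172% of the ceramide synthase mRNA in control, 94.1 ± 0.407% in FAC, 95.8 ± 0.24% with Lip-1 before FAC and 95.9 ± 0.414% with MT before FAC. Cers6 made up 3.6 ± 0.187%, 4.91 ± 0.453%, 3.55 ± 0.153% and 3.43 ± 0.383% in the same groups, and only its FAC libraries, at 4.4% to 5.27%, lay apart from the others.

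Counted over the genes, Lip-1+FAC differed from FAC in 9 of the 10, 4 higher and 5 lower. Of all genes tested 39.9% were called there, 20.7% higher and 19.2% lower, and 50.8% had no overlap between the groups. MT+FAC differed from FAC in 9 of the 10, also 4 higher and 5 lower. There 40.9% of all genes were called, 21.2% higher and 19.7% lower, and 52.9% had no overlap. St3gal5 was the gene not called in either comparison. The FAC libraries are common to these comparisons and to that of FAC with control, so the counts are not separate observations. Nothing is read from them, because the genes were listed with the FAC values known. Lip-1+FAC differed from control in 6 of the 10, with Sgpl1, Ugcg and Degs1 higher and Neu3, Sphk2 and St3gal5 lower. Of all genes 30.2% were called, 15.4% higher and 14.8% lower, and 43.3% had no overlap. MT+FAC differed from control in 3 of the 10, Neu3, Sphk2 and St3gal5, all lower. Of all genes 19.8% were called, 9.71% higher and 10.1% lower, and 38.2% had no overlap. Both comparisons use the same control libraries, whose values were also known when the genes were listed, so nothing is read from these counts either.

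**Figure D3:**
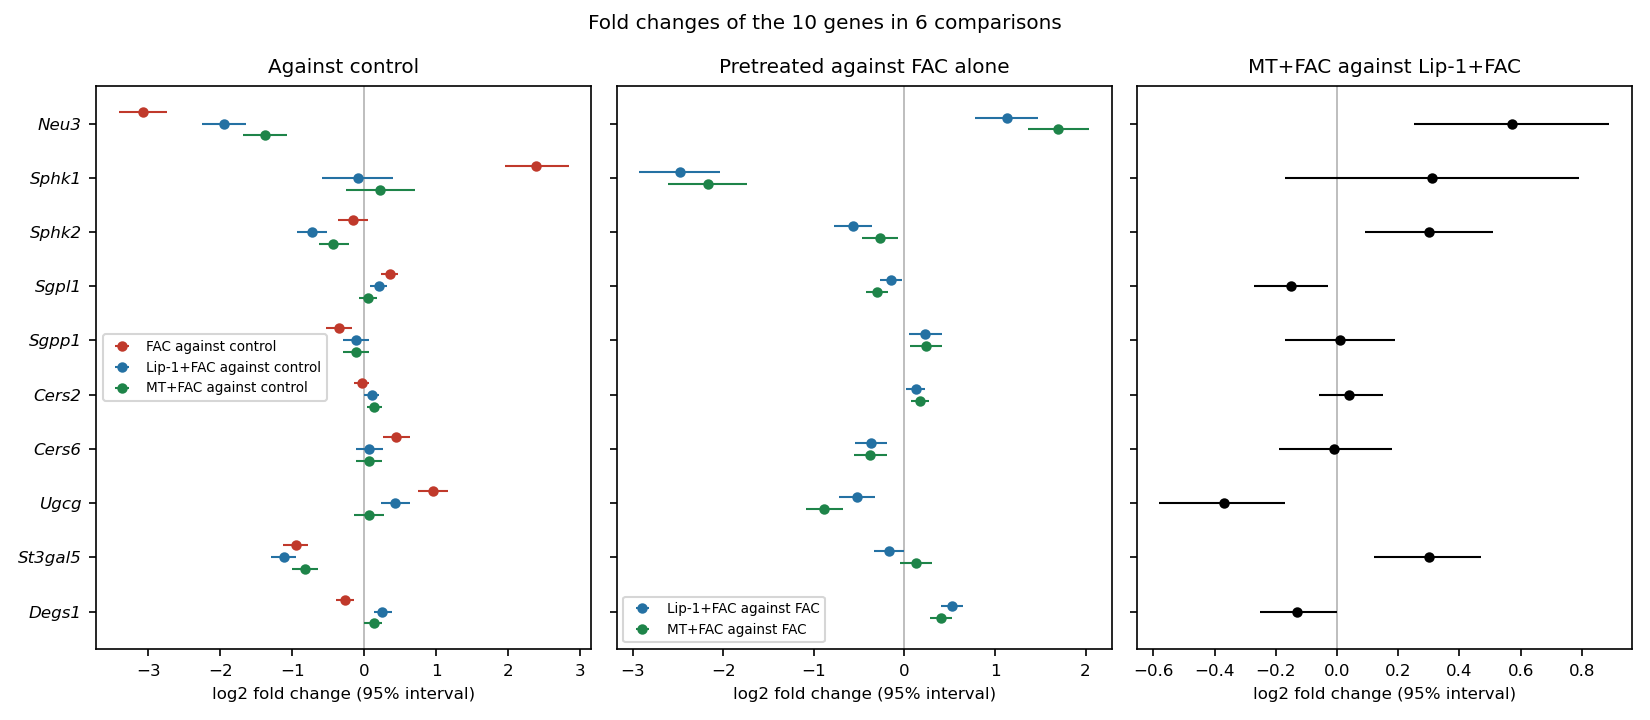
Points are log2 fold changes and bars their 95% intervals for the 10 genes, against control (left), against FAC alone (middle) and between the pretreated groups (right, with a narrower scale). Neu3 and Sphk1 have the largest differences from FAC, the intervals of St3gal5 in the middle panel include 0, and no gene in the right panel differs by more than 0.57.

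The scavengers were set against each other in a direct test of the MT+FAC and Lip-1+FAC libraries. None of the 10 genes passed in the edgeR test, where 1.34% of all genes were called, 0.465% higher and 0.879% lower. At an unadjusted p under 0.05 there were 6 of the 10 and 1795 of the 13535 genes tested. DESeq2 called more genes than edgeR, 465 of all genes and 3 of the 10. These 3 were Neu3, higher with MT by 0.57 (95% interval 0.25 to 0.89, edgeR adjusted p = 0.0705, DESeq2 0.0196), Ugcg with -0.37 (-0.58 to -0.17, edgeR 0.0688, DESeq2 0.0195) and St3gal5 with 0.30 (0.12 to 0.47, edgeR 0.0843, DESeq2 0.0376). In each of the 3 there was no overlap between groups, as in 5 of the 10 genes and in 19.8% of all genes. Sphk2 at 0.30 (0.09 to 0.51, edgeR adjusted p = 0.152) and Sgpl1 at -0.15 (-0.27 to -0.03, 0.239) also did not overlap. For Sphk1 the difference was 0.31, with an interval of -0.17 to 0.79. Cers2, Cers6 and Sgpp1 had the estimates nearest to 0, at 0.04 (-0.06 to 0.15), -0.01 (-0.19 to 0.18) and 0.01 (-0.17 to 0.19), and Degs1 was at -0.13 (-0.25 to -0.00).

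The protein-coding genes most like Neu3 across the 12 libraries were named by Pearson correlation of log2(CPM + 0.5), among 8999 genes with a mean of at least 5 CPM. They were Gucd1 (r = 0.984), Kalrn (0.979) and Gne (0.977), which encodes the enzyme that starts sialic acid synthesis. Gne averaged 104.3 CPM in control, 52.1 in FAC, 70.5 with Lip-1 before FAC and 73.6 with MT before FAC. For Sphk1 they were Areg (0.971), Prkcd (0.970) and Rictor (0.969), among 9000 genes. Areg, an EGF receptor ligand, averaged 8.33, 42, 10.8 and 11.4 CPM in these groups. The libraries share their groups, so these coefficients mostly reflect group means and are descriptions.

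Of 69 other genes listed for the same routes, 52 had enough counts to be tested. FAC raised 11 and lowered 13 of them, or 46.2%, against 36.6% of all genes, and their median log2 fold change was -0.02 where that of all genes was -0.01. In ceramide breakdown and sphingomyelin metabolism 4 rose and 4 fell of 14. Sgms2, a sphingomyelin synthase, rose by 1.24 (SE 0.0818, edgeR adjusted p = 7.15e-09), from 81.5 ± 5.04 to 192.7 ± 26.2 CPM (SD, n = 3). Smpd3, a neutral sphingomyelinase, fell by 1.64 (SE 0.152, adjusted p = 3.33e-07), from 23.7 ± 4.74 to 7.57 ± 1.01 CPM. In the S1P group 2 rose and 3 fell of 9. Aldh3a2, a fatty aldehyde dehydrogenase that clears the aldehyde left by the lyase, fell by 0.79 (SE 0.0633, adjusted p = 5.23e-08), from 166.6 ± 9.33 to 96.6 ± 2.93 CPM. Spns2, an S1P exporter, rose by 0.99 (SE 0.279, adjusted p = 0.0178), which was lost without control replicate 2 (0.94, 0.0677) or 3 (0.92, 0.0745) and without a filter on low counts (1.01, 0.0571).

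De novo synthesis had 1 gene higher and 3 lower of 9 in FAC. Sptssa, a small subunit of serine palmitoyltransferase, fell by 0.52 (SE 0.133, edgeR adjusted p = 0.00556). Sptlc2, a large subunit, rose by 0.18 (SE 0.0558, adjusted p = 0.019), which was lost without control replicate 3 or FAC replicate 1 or 2 (0.16 to 0.18, adjusted p 0.0524 to 0.063) and with GC and length offsets (0.12, 0.126). Of 7 other ganglioside and glycosphingolipid synthesis genes, 1 rose and 1 fell. B4galnt1, which makes GM2 from GM3, fell by 0.39 (SE 0.0689, adjusted p = 0.000254), from 159.3 ± 9.49 to 121.7 ± 10 CPM. B4galt6, a lactosylceramide synthase of about 1 CPM in control, rose by 1.08 (SE 0.334, adjusted p = 0.0165), which was lost without control replicate 2, control replicate 3 or FAC replicate 3 (0.78 to 0.96, adjusted p 0.0641 to 0.0932). Among 13 glycosphingolipid breakdown genes and sialidases 3 rose and 2 fell. The cytosolic sialidase Neu2 fell by 1.55 (SE 0.252, adjusted p = 0.000111), from 2.61 ± 0.542 to 0.898 ± 0.109 CPM. Gla, the lysosomal alpha-galactosidase, rose by 0.37 (SE 0.0704, adjusted p = 0.000438).

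**Figure D4:**
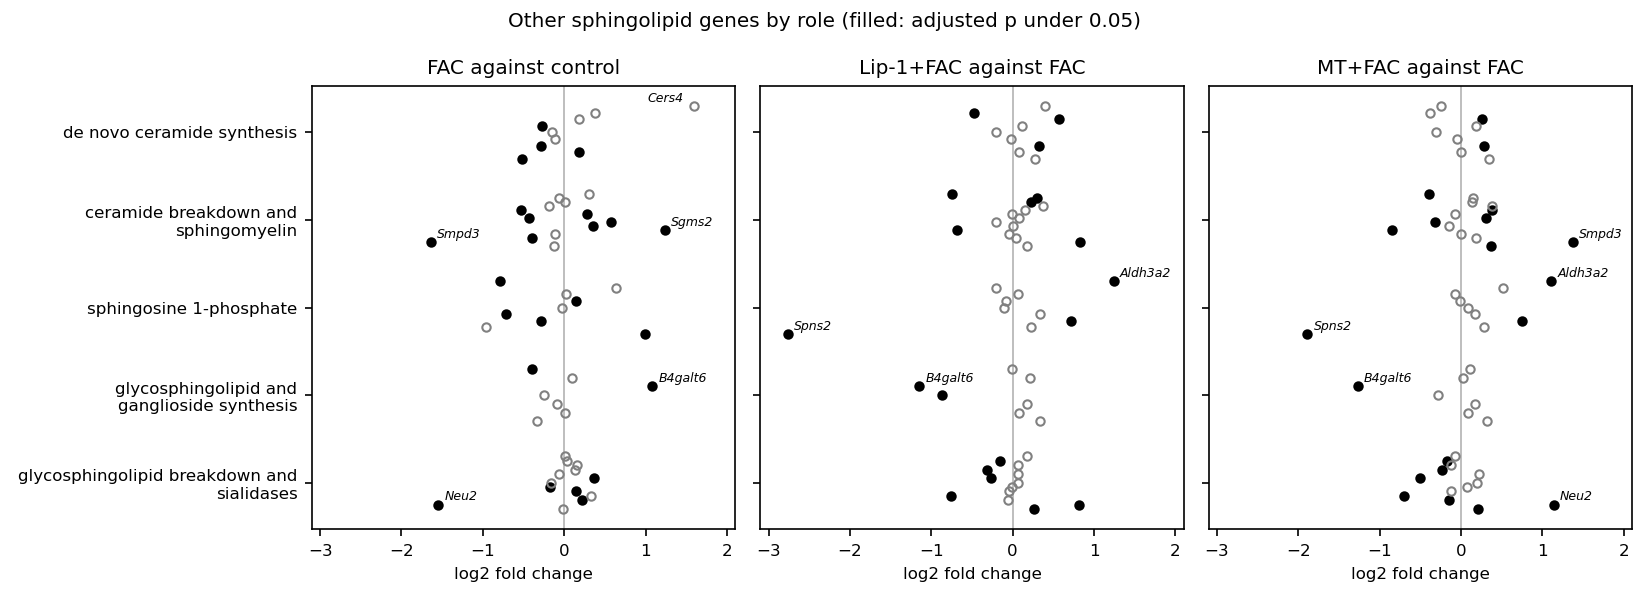
Each point is 1 of the 52 other tested genes, by role on the y axis, with its log2 fold change on the x axis in FAC against control, Lip-1+FAC against FAC and MT+FAC against FAC. Filled points passed an adjusted p of 0.05, and genes with a fold change of at least 1 in size on the log2 scale are named; Spns2 lies farthest left, at -2.76 with Lip-1 and -1.89 with MT.

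With Lip-1, 9 of the 52 rose and 10 fell against FAC (36.5%, against 39.9% of all genes), and with MT 10 rose and 10 fell (38.5%, against 40.9%). The FAC libraries again are common to these comparisons. Spns2 changed by -2.76 (SE 0.31, edgeR adjusted p = 5.18e-05) with Lip-1 and by -1.89 (SE 0.29, adjusted p = 0.000506) with MT. Its level was 17.6 ± 2.73 CPM in control, 35.1 ± 11.9 in FAC, 5.17 ± 1.37 with Lip-1 before FAC and 9.49 ± 2.79 with MT before FAC, and the Lip-1+FAC libraries lay below control as well (-1.77, SE 0.313, adjusted p = 0.00176). MT+FAC libraries, at 6.44 to 11.9 CPM, also lay below the control range of 15.9 to 20.8 CPM, but that difference did not pass (-0.89, SE 0.294, adjusted p = 0.058). Of the endothelial markers, Stab2 was below its FAC range in both pretreated groups and Cdh5 with Lip-1 alone (0.751 to 1.23 against 1.26 to 1.49 CPM), whereas Pecam1 and Kdr were not lower, and their part here was not tested. Aldh3a2 rose by 1.24 (SE 0.0636, adjusted p = 4.75e-10) and 1.11 (SE 0.0634, adjusted p = 2.54e-09), to 227.5 ± 8.86 and 209.0 ± 15.5 CPM, above control by 0.45 (adjusted p = 3.17e-05) and 0.33 (0.00143). Sgms2 fell by 0.69 (SE 0.0805, adjusted p = 2.91e-06) with Lip-1 and fell by 0.85 (SE 0.0807, adjusted p = 4.46e-07) with MT. Smpd3 rose by 0.83 (SE 0.154, adjusted p = 0.000355) and 1.37 (SE 0.152, adjusted p = 2.41e-06).

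By role, de novo synthesis had 2 rises and 1 fall of 9 with Lip-1 and 2 rises with MT. Kdsr, the ketodihydrosphingosine reductase, rose by 0.57 (SE 0.0778, edgeR adjusted p = 1.43e-05) with Lip-1. Cers5 fell by 0.47 (SE 0.181, adjusted p = 0.047) with Lip-1, which was lost without any control or FAC replicate, Lip-1+FAC replicate 1 or 2, or MT+FAC replicate 3 (-0.33 to -0.53, adjusted p 0.0532 to 0.206), without a filter (0.0728) and after thinning (0.0597). Sptlc1 rose by 0.28 (SE 0.079, adjusted p = 0.00931) with MT, which was lost without FAC replicate 1 (0.21, 0.0613) and with GC and length offsets (0.17, 0.0758). Acer2, a Golgi ceramidase, fell by 0.74 (SE 0.139, adjusted p = 0.000386) with Lip-1. B4galt6 fell by 1.15 (SE 0.334, adjusted p = 0.0109) with Lip-1 and fell by 1.27 (SE 0.334, adjusted p = 0.00556) with MT, the first of which was lost on leaving out FAC replicate 3 (-0.84, 0.0689) or the Lip-1+FAC replicate 1 (-0.93, 0.0586).

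Breakdown genes and sialidases had 2 rises and 4 falls of 13 with Lip-1 and 2 rises and 5 falls with MT. Neu2 rose by 0.82 (SE 0.259, edgeR adjusted p = 0.0175) and 1.14 (SE 0.253, adjusted p = 0.00166), the first of which was lost on leaving out FAC replicate 2 (0.75, 0.0657) or the Lip-1+FAC replicate 2 (0.76, 0.0591), without a filter (0.0514) and with only the compared groups in the fit (0.0516). Between MT+FAC and Lip-1+FAC none of the 52 passed in the edgeR test, where 1.34% of all genes were called. An unadjusted p under 0.05 was found for 9 of the 52 and 1795 of the 13535 genes tested. DESeq2 called 4 of the 52 and 465 of all genes.

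Against control, 13 of the 52 rose and 11 fell in Lip-1+FAC (46.2%, against 30.2% of all genes), and 6 rose and 3 fell in MT+FAC (17.3%, against 19.8%). In Lip-1+FAC, Sgms2 stayed higher by 0.55 (SE 0.0816, edgeR adjusted p = 6.45e-05) and Smpd3 lower, with -0.81 (SE 0.148, adjusted p = 0.000483). In MT+FAC, Sgms2 stayed higher by 0.39 (SE 0.0815, adjusted p = 0.00291), while Smpd3 at -0.27 did not pass (adjusted p = 0.205). Kdsr rose by 0.75 (SE 0.079, adjusted p = 1.73e-06) with Lip-1 before FAC and 0.44 (SE 0.0791, adjusted p = 0.000883) with MT before FAC. The S1P receptor gene S1pr2 rose by 0.44 (SE 0.0989, adjusted p = 0.00266) and 0.47 (SE 0.0986, adjusted p = 0.00272), and B4galnt1 changed by -0.40 (SE 0.069, adjusted p = 0.00029) and -0.28 (SE 0.0689, adjusted p = 0.00764), in the same order. Gal3st1, a galactosylceramide sulfotransferase, fell in Lip-1+FAC by 1.12 (SE 0.286, adjusted p = 0.0065), from 1.79 ± 0.271 to 0.821 ± 0.0323 CPM, and its MT+FAC difference of -0.54 did not pass (adjusted p = 0.176). Psap, the saposin precursor, rose by 0.25 (SE 0.049, adjusted p = 0.00096) with Lip-1 before FAC and 0.20 (SE 0.049, adjusted p = 0.00892) with MT before FAC, the latter lost without MT+FAC replicate 1 (0.16, 0.0612).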

How the data were processed

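RNA of 12 libraries of mouse primary hepatocytes, 3 in each of 4 groups named by the sample labels, was measured. Per the labels' protocols, the SMART-Seq v4 kit gave the cDNA, Nextera XT the libraries and a NovaSeq instrument the paired-end reads. No molecular identifiers are mentioned, so counting intervals treat PCR copies as molecules. Raw counts per gene were deposited in the layout of the STAR aligner, which with the build GRCm38 is named in the submitters' processing notes. The unstranded column was used. Multimapped reads are not counted in this layout, and lines naming no gene stayed out of library sizes. Genes received 75.8% to 81.2% of the listed reads.

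Names, coordinates and lengths come from GENCODE M21, which matched 55227 of 55487 identifiers. A blastn 2.17.0+ search at 95% identity found no copy of the 10 genes covering at least 20% of a transcript. Promoter windows come from RefSeq (GRCm38.p6), in which all 10 genes matched. In edgeR 4.0.16 (R 4.3.3), genes were kept by filterByExpr, scaled by TMM and tested with the robust quasi-likelihood F test over all 12 libraries, without a block. The common biological coefficient of variation was 9.71%. P-values were two-sided, adjusted by Benjamini-Hochberg over 13535 genes, and called under 0.05. The script was tested on simulated data. Alternatives were DESeq2 1.42.0, other scalings, filters, counting columns, depth, offsets, a replicate block and leaving out each library.

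The 10 genes, the wider list, the marker lists and the tests were chosen with earlier results of these data known. The text names the 10 genes, the called gene of the wider list with the largest rise and fall per role and comparison (some calls against control are given in the closing section), and the 3 genes most like Neu3 and Sphk1. A result of the wider list that the rule would name is not reported here. Single marker genes were named after their values were seen.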

Additional observations from a re-analysis of the deposited data

How the results depend on the processing

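Of 1314 fold changes of the 10 genes recomputed under alternatives, 1223 kept their direction and their side of the threshold, 48 kept their direction and lost the call, 18 kept it and gained one, and 25 changed sign. Those 25 were not called in the main test or under the alternative. With offsets for GC content and length the sign changed for Cers2 in FAC against control (0.05), for Cers2 and Cers6 in MT+FAC against Lip-1+FAC (-0.02 and 0.02), for Sphk1 and Cers6 in Lip-1+FAC against control (0.05 and -0.11), and for Cers6, Ugcg and Sgpl1 in MT+FAC against control (-0.09, -0.01 and -0.00). In MT+FAC against Lip-1+FAC it also changed for Cers6 with upper-quartile scaling (0.01) and without a filter (0.00), and for Sgpp1 with the stranded columns summed (-0.01). Leaving out a library gave values on both sides of 0 for Sgpp1 (-0.04 to 0.06) and Cers6 (-0.09 to 0.07) in that comparison, for Sphk1 in Lip-1+FAC against control (-0.32 to 0.06), and for Sphk1 (-0.01 to 0.39), Sgpl1 (-0.00 to 0.09), Cers6 (-0.01 to 0.14) and Ugcg (-0.03 to 0.13) in MT+FAC against control. In MT+FAC against Lip-1+FAC, where none of the 10 genes was called, 3 were called without a filter on low counts, 3 with DESeq2, 2 with only the compared groups in the fit, and 0 to 1 when a library was left out. In the same comparison the wider list went from none to 1 without a filter, 1 at a mean CPM of at least 5, 4 with DESeq2, 2 with only the compared groups, 2 with the stranded columns summed, 1 with offsets for GC content and length, and 0 to 2 when a library was left out. All genes called there numbered 182 in the main test, 477 without a filter, 465 with DESeq2, 312 with only the compared groups and 74 to 255 when a library was left out. They numbered 204 at a mean CPM of at least 5, 252 with the stranded columns summed and 207 with the offsets. Of the 10 genes, 5 were called in MT+FAC against control with GC and length offsets, against 3, the gained ones being Cers2 and Degs1. In that comparison 2513 of all genes were called with the offsets and 2684 in the main test. The offsets also gave a call for Cers2 in Lip-1+FAC against control (0.19, adjusted p = 0.00639). In MT+FAC against control, Cers2 was also called with RLE scaling (0.15, adjusted p = 0.0402), DESeq2 (0.15, 0.013) and thinning (0.16, 0.0274) and without control replicate 2, FAC replicate 3 or Lip-1+FAC replicate 3 (0.14 to 0.17, 0.0454 to 0.0499). With the stranded columns summed, the Sphk1 share in FAC was 22.3% and the Cers5 share of ceramide synthases in control 0.686%, against 24.8% and 0.706%. The cause of these shifts was not tested. Leaving out a library gave 6 to 9 called genes of the 10 in Lip-1+FAC and 7 to 9 in MT+FAC against FAC, and 5 to 6 and 3 to 4 against control. In the same order, all genes called ranged from 4566 to 5616, 4488 to 5756, 3233 to 4180 and 1794 to 2838. Replicate numbers did not pair the libraries: deviations of 18 same-numbered pairs correlated between -0.249 and 0.164, 3 of them over 0.1, and 4 of 12 libraries correlated best with their own number. With the replicate block, Sgpl1 and Cers2 lost their calls in Lip-1+FAC against FAC (-0.15 and 0.13, edgeR adjusted p = 0.0621 and 0.0567), and no other call of the 10 genes changed. The block also ended the wider-list calls of Cers4 in Lip-1+FAC (1.99, adjusted p = 0.0675) and Smpd2 in MT+FAC (-0.23, adjusted p = 0.0508) against control. Weak calls of the wider list against control were Cers4 in Lip-1+FAC (1.99, adjusted p = 0.049, at most 24 counts in a library), Neu2 in Lip-1+FAC (-0.73, 0.0305), Smpd2 in MT+FAC (-0.23, 0.0398) and S1pr1 in MT+FAC (-0.55, 0.0232), each lost when single libraries were left out and under some other alternatives, among them no filter for Cers4 (0.0722), Neu2 (0.0935) and Smpd2 (0.144) and the offsets for the same genes (0.0804, 0.0902 and 0.0716) (leaving out: Cers4 0.0556 to 0.155, Neu2 0.053 to 0.153, Smpd2 0.0516 to 0.143, S1pr1 0.0522 to 0.111). Intervals cover the spread between 3 libraries a group, which limits what a difference between the pretreated groups can show.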
